A study of Mus musculus with 2 samples.

Results

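The genes of 4 EGR transcription factors (Egr1, Egr2, Egr3 and Egr4) and of 2 NAB corepressors (Nab1 and Nab2) were examined for chromatin contact of the phosphatase PHLPP1 in mouse alveolar macrophages, which patrol the air side of the lung. These 6 genes were set by name among 21883 protein-coding genes. Their regions were the peak regions of the deposited lists that touched a gene body or the 50 kb on each side of it. Near Nab2, whose body meets that of Stat6, a region counted only when it lay nearer to Nab2 than to Stat6. The rule took 52 of 165968 regions of the untreated library and 85 of 226476 of the IL-4 library. PHLPP1 was profiled with CUT&Tag, in which an antibody directs a transposase to cut and tag the DNA around its target. Both groups were primary alveolar macrophages washed from the lungs of wild-type mice. The groups were untreated cells and cells given 20 ng/ml of interleukin-4 (IL-4), the cytokine of alternative macrophage activation, for 4 h. Each group held 1 library, so no test between the groups was possible and every difference below describes these 2 libraries. The sources used here do not give the number, age or pooling of the mice, and no control antibody library was analysed here.

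EGR factors are immediate early zinc finger proteins: their genes respond within minutes to growth factors and cytokines through serum response factor and its ETS partners, and the proteins bind GC-rich sites. NAB1 and NAB2 dock on EGR1, EGR2 and EGR3, but not EGR4, and mostly repress their activity, NAB2 in part through the CHD4 subunit of the NuRD complex. Nab2 is itself a target gene of EGR factors, which closes a negative feedback loop. In macrophages, EGR2 is induced by IL-4 through STAT6 and takes part in alternative activation, and EGR1 is linked to monocyte and macrophage differentiation.

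RefSeq promoter windows on GRCm38.p6, the assembly behind mm10, run from 250 bases before to 50 bases after a start and were held for 4 of the 6 genes, Egr2, Egr4, Nab1 and Nab2. Egr1 and Egr3 had no entry. The 4 windows below are printed because PHLPP1 regions covered them to very different extents. They read 5′ to 3′ on the gene's strand, and capitals mark the motifs found in them. The Egr2 window is chr10:67537619-67537918 on the plus strand, Egr4 is chr6:85513540-85513839 on the minus strand, Nab1 is chr1:52500399-52500698 on the minus strand and Nab2 is chr10:127666654-127666953 on the minus strand.
Egr2: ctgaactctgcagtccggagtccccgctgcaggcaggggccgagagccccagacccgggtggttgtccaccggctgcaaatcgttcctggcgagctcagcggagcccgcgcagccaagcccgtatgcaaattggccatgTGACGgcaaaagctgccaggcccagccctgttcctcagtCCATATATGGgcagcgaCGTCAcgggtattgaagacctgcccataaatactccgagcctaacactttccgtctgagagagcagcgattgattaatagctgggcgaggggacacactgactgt
Egr4: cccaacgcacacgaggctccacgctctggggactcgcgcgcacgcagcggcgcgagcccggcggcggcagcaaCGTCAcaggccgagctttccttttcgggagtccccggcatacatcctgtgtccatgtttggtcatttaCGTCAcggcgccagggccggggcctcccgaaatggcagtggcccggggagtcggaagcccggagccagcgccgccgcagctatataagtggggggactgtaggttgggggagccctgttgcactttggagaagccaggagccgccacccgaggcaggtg
Nab1: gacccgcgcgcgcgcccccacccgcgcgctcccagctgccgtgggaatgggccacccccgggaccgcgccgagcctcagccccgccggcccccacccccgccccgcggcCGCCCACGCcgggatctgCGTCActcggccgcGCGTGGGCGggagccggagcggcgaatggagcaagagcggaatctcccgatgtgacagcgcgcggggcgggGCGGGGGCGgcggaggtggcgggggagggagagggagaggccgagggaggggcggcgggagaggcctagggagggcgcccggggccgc
Nab2: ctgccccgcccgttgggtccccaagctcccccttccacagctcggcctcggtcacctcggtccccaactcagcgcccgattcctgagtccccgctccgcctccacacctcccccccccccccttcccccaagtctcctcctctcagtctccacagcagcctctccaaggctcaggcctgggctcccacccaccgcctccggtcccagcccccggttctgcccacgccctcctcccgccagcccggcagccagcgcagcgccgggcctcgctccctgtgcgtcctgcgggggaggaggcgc

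Of the 300 bases of the Egr2 window, untreated regions covered 270 and IL-4 regions 285, and both libraries had their summit inside it, 85 bases before the start. At Nab2 the untreated library covered all 300 bases and the IL-4 library 13. At Nab1 the coverage was 259 and 157 bases. The Egr4 window held no region in either library.

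Patterns were searched on both strands in the 21237 distinct RefSeq windows of protein-coding genes. The patterns were the EGR site as GCGTGGGCG or GCGGGGGCG, the ETS core CCGGAA, the cyclic AMP element TGACGTCA and its part TGACG, the STAT pattern TTC and GAA with 3 or 4 bases between them, and the CArG box that serum response factor binds. The part TGACG also lies within TGACGTCA, and the other patterns can overlap as well. The Egr2 window held a CArG box, CCATATATGG, which began 72 bases before the start, and a TGACG on each side of it, 111 and 55 bases before the start. A CArG box was present in 1.53% of all windows and TGACG in 23.6%. The Nab1 window held GCGTGGGCG in 2 places, 1 on each strand, 141 and 109 bases before the start, and GCGGGGGCG once, 38 bases before it, beside 1 TGACG. These forms of the EGR site were present in 0.829% and 3.87% of windows. The Egr4 window held TGACG in 2 places, and the Nab2 window held none of the patterns. A GC content of 81.7% in the Nab1 window, 74% at Nab2, 67.7% at Egr4 and 60% at Egr2 stood against a median of 56.3% over all windows. These matches describe letters, and binding to them was not tested.

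The values used are, per region, the authors' own fold over the background of its library, and the summit pileup, the number of fragments stacked at the highest point. The pileup was recovered from the fold and the p-value. Fold is not scaled between libraries. To set pileups side by side, the IL-4 value was divided by 1.14, the ratio of the constant backgrounds of the 2 libraries (13.9 fragments untreated, 15.9 with IL-4), and the quotient of the pileups after this step is called the scaled ratio. Intervals are exact 95% intervals that cover counting error only. PHLPP1 regions were called at the starts of 10 of 12 alveolar macrophage marker genes in each library, all but Chil3 and Krt79. Markers of T and B cells were marked at 1 and 2 of 7, of neutrophils at 2 and 3 of 6 and of lung epithelium at 3 and 5 of 6, in the untreated and IL-4 libraries. Of all protein-coding genes, 55.1% untreated and 66.8% with IL-4 carried a region within 1 kb of the start. Many marker regions were weak. At a −log10 q of 5 or more, 3 and 9 of the 12 alveolar macrophage markers were marked, against 32.8% and 50.6% of all genes. The other markers were then marked at 0 and 0 (T and B cells), 1 and 2 (neutrophils) and 0 and 2 (lung epithelium). The highest fold among all these markers was at the neutrophil gene S100a8, 4.89 untreated and 7.11 with IL-4. The part of other cells in the results was not tested.

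Within 1 kb of the starts, PHLPP1 regions were found at Egr1, Egr2, Nab1 and Nab2 in both libraries. At Egr3 a region was found only after IL-4, and at Egr4 in neither library. A gene is called marked when a region lay within 1 kb of a start, or of either gene end where no start was held, as for Egr1 and Egr3. The untreated library marked 4 of the 6 genes and the IL-4 library 5, against 55.1% and 66.8% of all protein-coding genes. Marks present after IL-4 alone were found at Egr3 and at 14.7% of all genes, and marks in untreated cells alone at no member and at 2.99% of all genes. Counting only regions with a −log10 q of 5 or more, 3 members were marked untreated and 4 after IL-4, against 32.8% and 50.6% of all genes. With a fold of at least 3 the counts were 2 and 3, against 26.2% and 40.2%. The shares of members lie near those of all genes, and 6 genes are few.

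**Figure D1:**
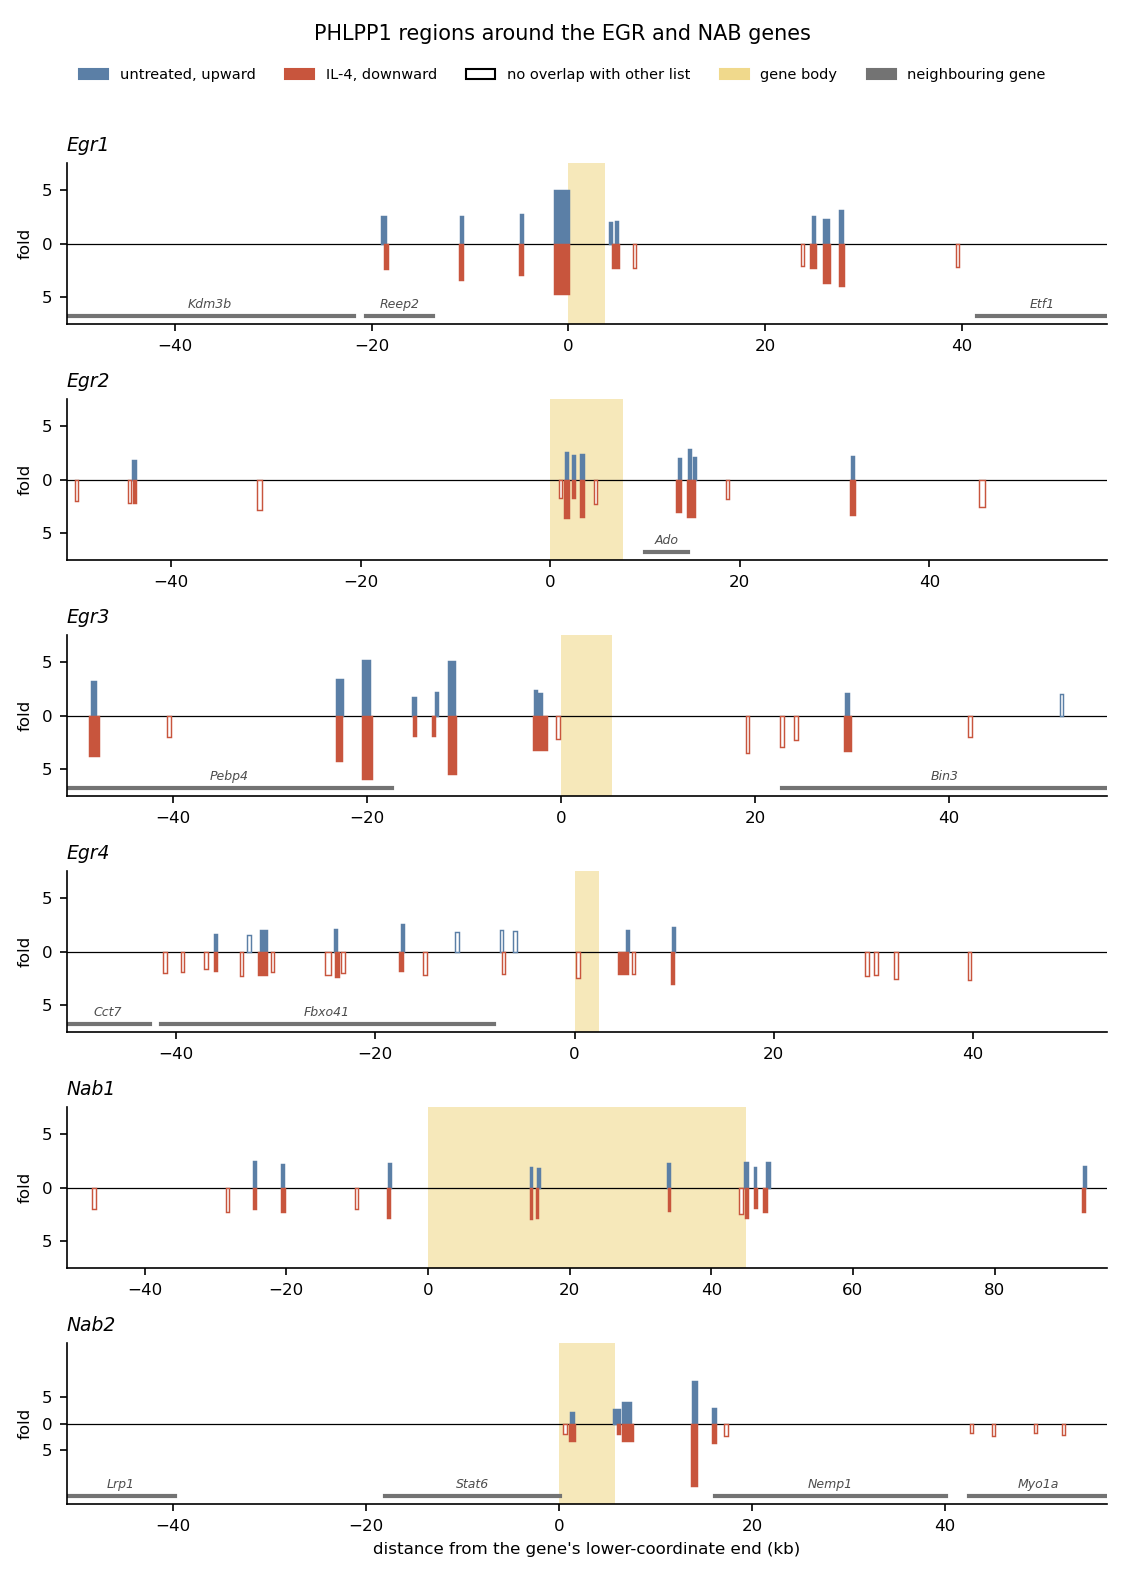
PHLPP1 regions in the windows of the 6 genes, with the distance from the gene's lower-coordinate end in kb on the x axis and the authors' fold on the y axis, untreated upward in blue and IL-4 downward in red. Open bars had no overlap in the other list, yellow marks the gene body and grey lines the neighbouring protein-coding genes. The tallest bars lie at the lower end of Egr1, below Egr3 and beyond Nab2, and Egr4 and Nab1 have none above a fold of 3.06.

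Egr1, the immediate early factor of the family with the broadest expression, carried a wide and strong region. Egr1 lies on chromosome 18 from 34861207 to 34864956 (mm10). A region of 1474 bp, 34859774 to 34861247, covered its lower end and had the same borders in both libraries. Its fold was 5.04 untreated and 4.70 after IL-4. The summit pileup was 106 fragments (86.8 to 128) untreated and 152 (129 to 178) with IL-4, a scaled ratio of 1.26 (0.975 to 1.63), so the difference stayed within counting error. The fold was lower with IL-4 while the pileup was higher, and the background at the region was 20.2 fragments untreated and 31.6 with IL-4. Among marked genes of the untreated list, 86.2% had a lower highest fold at the start than Egr1, and in the IL-4 list 68.8%. The summits lay 1.26 and 1.24 kb below the gene, not at its end. Weak regions past the upper end had folds of 2.0 and 2.08 untreated and 2.22 after IL-4.

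Egr2, the IL-4 induced factor, was marked at its starts in both libraries, and its strongest start regions were higher with IL-4. Egr2 lies on chromosome 10 from 67534469 to 67542188 on the plus strand, with 5 annotated starts from 67535499 to 67537930. The region over the last starts ran from 67537649 to 67537955 untreated and from 67537634 to 67537994 after IL-4, with its summit at the same base, 67537784, in the window printed above. Its folds were 2.43 and 3.46. The pileup was 40 fragments (28.6 to 54.5) untreated and 85 (67.9 to 105) with IL-4, a scaled ratio of 1.86 (1.27 to 2.79).

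An upstream region at 67535996 to 67536392, between the first start and the others, showed the same direction, with 44 fragments untreated and 90 with IL-4, folds of 2.63 and 3.6, and a scaled ratio of 1.79 (1.24 to 2.63). The region between them, at 67536734 to 67537114, had 39 and 42 fragments, with a scaled ratio of 0.944 (0.596 to 1.5). Of these start regions of Egr2, the outer pair was higher with IL-4 beyond counting error and the middle one was not. Their intervals overlap, and whether the ratios differ from each other was not tested. The background at these regions was 15.9 to 16.1 fragments untreated and 23.7 to 24.3 with IL-4. The first start was touched only by a weak IL-4 region, at 67535346 to 67535549, with a fold of 1.66 and 40 fragments. No region lay in the window of the second start, whose CArG box (CCTTTTTTGG) and ETS cores were covered in neither library. The highest untreated fold of the window lay outside the gene, at 67548985 to 67549356 beside Ado, with 2.82 and 41 fragments untreated and 3.44 and 57 fragments after IL-4, a scaled ratio of 1.22 (0.802 to 1.87).

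A scaled ratio of at least 1.5, as at these outer Egr2 regions, was reached by 13.8% of the 101995 shared region pairs of the genome and by 35.2% of the 11477 pairs within 1 kb of a protein-coding start. At the members' starts, 2 of 8 pairs reached it, both of Egr2. Their median scaled ratio was 1.21, against 1.38 at all starts. Ratios of the size seen at Egr2 were therefore common at gene starts in these libraries.

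**Figure D2:**
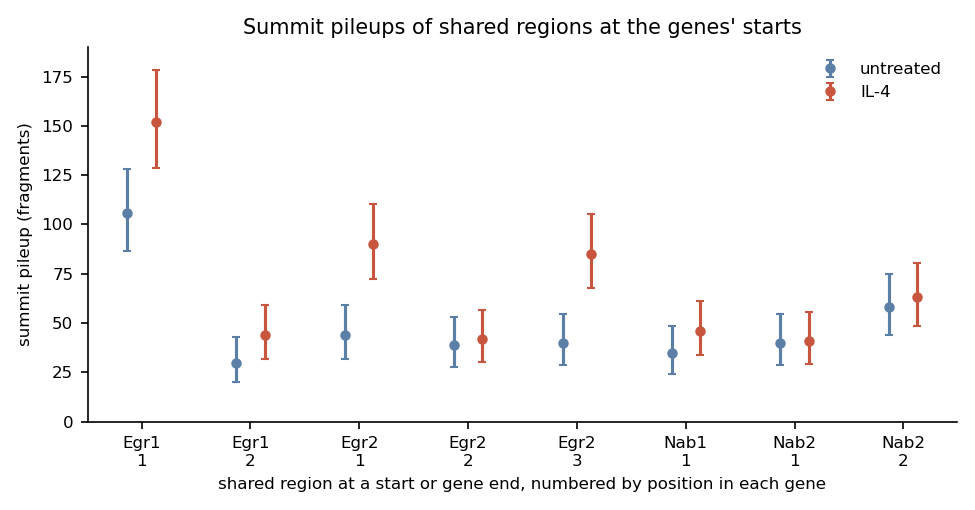
Summit pileup in fragments on the y axis for the 8 shared region pairs within 1 kb of a start (Egr1: of a gene end), untreated in blue and IL-4 in red, with exact 95% Poisson intervals and numbers that count regions along the chromosome in each gene. Before scaling, the intervals are apart at the outer Egr2 pairs and at the first Egr1 pair, and overlap at the others.

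Egr3, a factor close to EGR2 in its targets in lymphocytes, had no region over its body in either library, and its strongest regions lay 10.8 to 22.5 kb below it. Egr3 lies on chromosome 14 from 70077317 to 70082613. The one region within 1 kb of an end, at 70076813 to 70077117, had no untreated counterpart, with a fold of 2.16, a −log10 q of 3.25 and 37 fragments. Just farther out, untreated regions with folds of 2.41 and 2.08 began 2.50 and 2.11 kb from the gene, where a single IL-4 region (3.22) spanned both and reached to 1.43 kb. The strongest region of the window, at 70056797 to 70057593 inside Pebp4, had folds of 5.15 and 5.90. Its pileups were 109 (89.5 to 131) and 198 (171 to 228) fragments, a scaled ratio of 1.59 (1.25 to 2.03). A second inside Pebp4, at 70054098 to 70054776, had 70 and 138 fragments and a scaled ratio of 1.73 (1.29 to 2.34). A region between Pebp4 and Egr3, at 70065640 to 70066393, had folds of 5.10 and 5.40 and 75 and 113 fragments, a scaled ratio of 1.32 (0.978 to 1.79). The target gene of these distal regions was not tested.

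Egr4, the member that NAB proteins do not bind, was the 1 gene of the 6 with no region within 1 kb of its start in either library. Egr4 lies on chromosome 6 from 85511121 to 85513589 on the minus strand. The nearest region to its start lay upstream, 2.70 kb away untreated and 1.93 kb away after IL-4, with folds of 2.01 and 2.11 and pileups of 29 and 36 fragments. In the gene body the IL-4 list alone held 1 region, at 85511288 to 85511581 near the gene's end, with a fold of 2.49 and 41 fragments. The highest untreated fold of the window was 2.55, inside Fbxo41, where the paired IL-4 region had 1.78 and the scaled ratio was 0.687 (0.408 to 1.15). After IL-4 it was 3.06, 7.20 kb upstream of the start, where the untreated fold was 2.28 and the pileups were 33 and 58. No untreated region of this window reached a −log10 q of 5, and 5 IL-4 regions did. Fbxo41, the neighbour, held 6 of the 10 untreated and 12 of the 21 IL-4 regions.

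Nab1, the more constantly expressed corepressor, carried weak regions at its start, in its body and past its end, most of them in both libraries. Nab1 lies on chromosome 1 from 52455849 to 52500712, with its start at 52500448 on the minus strand. The untreated region at the start, 52500440 to 52501030, covered it with a fold of 2.41 and 35 fragments (24.4 to 48.7). In the IL-4 library 2 regions flanked the start, 94 bases upstream with a fold of 2.79 and 46 fragments, and 180 bases downstream, in the IL-4 list alone, with 2.43 and 40. The scaled ratio of the upstream pair was 1.15 (0.727 to 1.84). The untreated region of highest fold (2.48) lay 24.4 kb past the gene's end and had an IL-4 counterpart of 2.02. In the IL-4 library the highest (2.91) lay in the body, at 52470200 to 52470550, with 48 fragments against 28 untreated, a scaled ratio of 1.5 (0.924 to 2.49). All 10 untreated regions of Nab1 overlapped an IL-4 region, no fold of the window reached 3 in either library, and the background stayed at the constant level of each library at every shared region.

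Nab2, the corepressor that EGR factors induce, had start regions of like pileup in both libraries, while regions in its body and farther upstream were higher with IL-4. Nab2 lies on chromosome 10 from 127660918 to 127666703, with its start at 127666703 on the minus strand. The untreated region at the start, 127666542 to 127667235, had a fold of 2.66 and 40 fragments (28.6 to 54.5), and the IL-4 region, 127666941 to 127667234, began 238 bases upstream with a fold of 1.86 and 41 fragments (29.4 to 55.6). The scaled ratio was 0.899 (0.567 to 1.43), so the pileup differed by less than counting error, and the background was 14.4 fragments untreated and 21.5 with IL-4. The summits lay 426 bases apart, 68 bases inside the gene untreated and 358 bases upstream of the start with IL-4. These pileups therefore compare different positions. The next region upstream, from 127667460 in both libraries, 757 bases from the start and inside the lncRNA gene 1700012D01Rik, had folds of 3.96 and 3.21 and 58 and 63 fragments, a scaled ratio of 0.953 (0.656 to 1.39).

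In the body of Nab2 the picture was different. The region at 127662104 to 127662509 had folds of 2.08 and 3.23 and pileups of 30 (20.2 to 42.8) and 68 (52.8 to 86.2), a scaled ratio of 1.99 (1.28 to 3.16) and the highest among the 44 shared pairs. The strongest region of all 6 windows, at 127674694 to 127675200, lay 7.99 kb upstream of Nab2, inside the lncRNA gene Gm16230 and 1.87 kb from Nemp1, the nearest protein-coding gene. Its folds were 7.98 and 11.6, and its pileups 118 (97.7 to 141) and 245 (215 to 278) fragments, a scaled ratio of 1.82 (1.46 to 2.29). The region over the lower-coordinate end of Nemp1, at 127676807 to 127677142, had 42 and 75 fragments, a scaled ratio of 1.57 (1.06 to 2.34).

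Across the windows, PHLPP1 regions were more numerous with IL-4 at each of the 6 genes, as at 80.5% of all protein-coding genes. Untreated and IL-4 counts were 9 and 11 at Egr1, 8 and 14 at Egr2, 10 and 14 at Egr3, 10 and 21 at Egr4, 10 and 14 at Nab1, and 5 and 11 at Nab2. The median window of all protein-coding genes held 9 untreated and 16 IL-4 regions, and by these counts Egr4 alone exceeded the IL-4 median. That depends on how windows are counted. The median leaves out no neighbour, and with its Stat6 side included Nab2 held 10 and 19 regions, also above both medians. Per 100 kb of window, the medians were 6.54 and 11.9. Egr4 held 9.76 and 20.5, Egr3 9.50 and 13.3, and Egr2 7.43 and 13, all above both medians. Egr1 held 8.67 and 10.6 and Nab1 6.90 and 9.66, above the untreated and below the IL-4 median. Of the untreated regions, 24 of 52 had the member as their nearest protein-coding gene, and of the IL-4 regions 39 of 85. The regions covered 21.2 kb untreated and 38.1 kb with IL-4, at mean widths of 407 and 449 bp. Every listed region was counted, also weak ones, with a −log10 q as low as 0.604 untreated and 1.29 with IL-4.

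**Figure D3:**
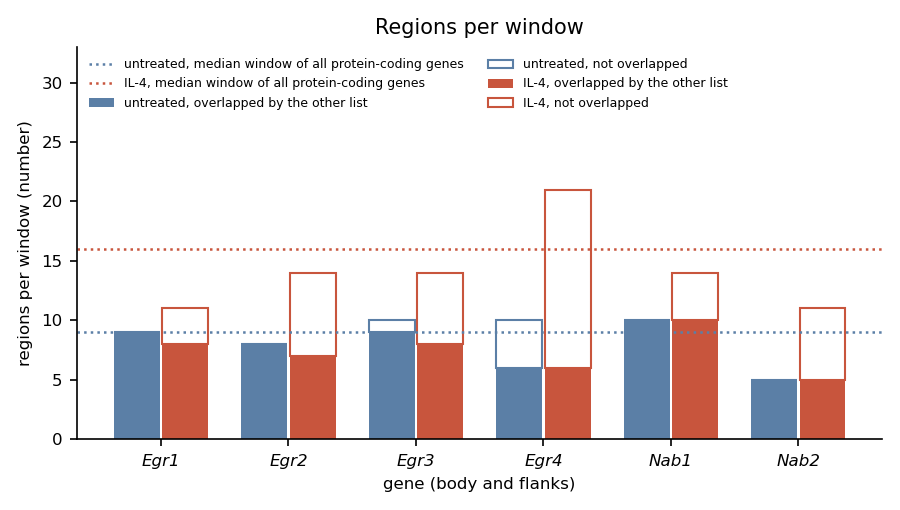
Number of regions per window (y axis) for each gene, untreated in blue and IL-4 in red, with the part overlapped by the other list filled and the rest open. Dotted lines mark the median window of all protein-coding genes, 9 untreated and 16 IL-4; Egr4 with 21 IL-4 regions is above the IL-4 line, and Nab2, drawn with 11 because regions nearer to Stat6 are left out, has 19 with them.

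Nearly every untreated region of these windows had an IL-4 region over it. At least 1 bp was shared by 47 of 52 untreated regions (90.4%, 79.0 to 96.8), against 62.9% of the whole untreated list and 67.5% of its regions within 50 kb of any protein-coding gene. Of the IL-4 regions 44 of 85 were overlapped (51.8%, 40.7 to 62.7), against 45.6% of the whole IL-4 list and 44.7% within 50 kb of a gene. The 5 untreated regions without an overlap were 4 at Egr4 and 1 at Egr3, inside Bin3, all with folds of 2.01 or less. Whether the members' share differs from that of windows of like strength was not tested.

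The 41 IL-4 regions without an overlap were mostly weak, with a median fold of 2.13, against 2.08 over all 123206 such regions of the list. Only 1 of the 41 reached a fold of 3, at 70096380 to 70096738 between Egr3 and Bin3 (3.50, 58 fragments), and 3.13% of all such regions did. At Egr3 the next ones were over the lower-coordinate end of Bin3 (2.91) and inside Bin3 (2.25). At Egr2 the strongest lay 30.4 kb below the gene, inside the lncRNA gene Gm32255 (2.79, 46 fragments), then 37.5 kb above it (2.55) and in its body at 67539055 to 67539297 (2.30, 55 fragments). At Egr4, with 15 such regions, the strongest lay 37.0 and 29.6 kb upstream (2.61 and 2.57) and in the body (2.49). At Egr1 they reached 2.29, 2.83 kb past its upper end, then 2.13 and 2.04 farther out. At Nab1 they reached 2.43 beside the start, then 2.31 and 2.02 past the gene's end. At Nab2 they reached 2.29, inside Nemp1 and inside Myo1a, then 2.14 inside Myo1a.

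Among the 44 shared pairs, 34 had a scaled ratio above 1 and 10 below it, where 67.7% of all 101995 pairs of the genome were above 1. The median was 1.29, against 1.11 over all pairs. The divisor is the same at every pair. The background recovered at the 44 pairs was itself higher with IL-4 by a median factor of 1.29, against 1.14 over all pairs. The scaled ratio leaves this local difference in. A ratio of at least 1.5 was reached by 14 of the 44, against the 13.8% of all pairs given above, with 4 at Egr2, 3 each at Egr3 and Nab2, 2 at Egr1 and 1 each at Egr4 and Nab1. No pair fell to 1/1.5 or lower, as 0.554% of all pairs did. The interval of the ratio lay above 1 at 10 pairs, namely 3 at Egr1, 2 at Egr2, 2 at Egr3 and 3 at Nab2, and below 1 at none, against 13.9% and 0.526% of all pairs. Egr4 and Nab1 had no such pair. The medians ran from 1.10 at Nab1 over 1.22 at Egr4, 1.35 at Egr1, 1.37 at Egr3 and 1.51 at Egr2 to 1.57 at Nab2. The ranges of the genes overlapped throughout, 0.944 to 1.86 at Egr2 and 0.804 to 1.5 at Nab1 for example. All these ratios depend on the scaling: with the median ratio of all shared pairs as the divisor (1.26), 6 of the 44 pairs reached 1.5, against 7.45% of all pairs. These were the outer start regions of Egr2 (1.62 and 1.68), 2 at Nab2 (1.79 and 1.64), and 1 each at Egr1 (1.61) and Egr3 (1.56).

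**Figure D4:**
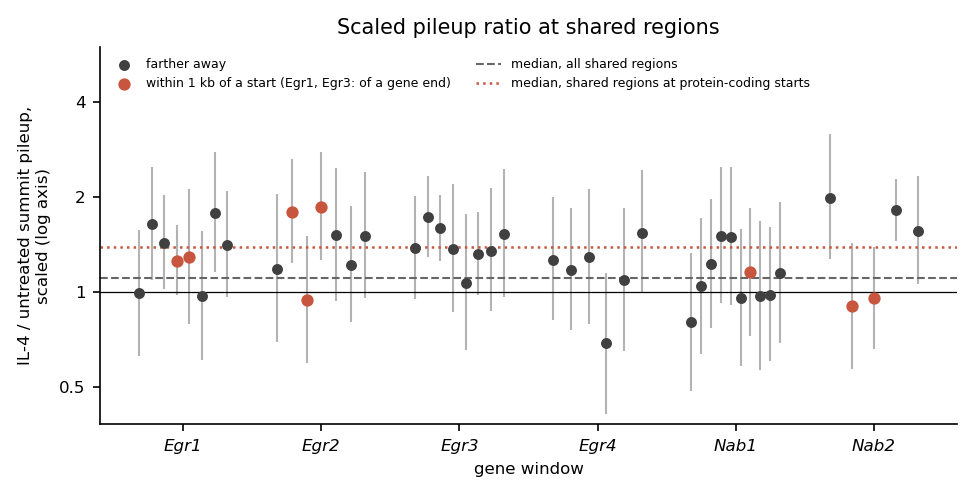
Scaled ratio of the IL-4 to the untreated summit pileup (y axis, log scale) for the 44 shared pairs by gene, ordered along the chromosome, with exact 95% intervals. Red points lie within 1 kb of a start (Egr1: of a gene end); the dashed line is the median of all shared pairs, 1.11, and the dotted line that of shared pairs at protein-coding starts, 1.38. The outer start regions of Egr2 lie above both lines and the start pairs of Nab2 lie below 1.

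Genes of 5 lists linked to EGR factors were marked at most of their starts. The lists were upstream regulators, NuRD subunits, other immediate early genes, genes that EGR factors bind in other tissues, and related zinc finger factors. Over the 5 lists, 54 of 66 genes were marked untreated and 61 after IL-4, against the 55.1% and 66.8% of all genes given above. All 54 were marked in both libraries. The median fold at the start was 2.88 over the 12062 genes marked untreated and 3.50 over the 14625 marked after IL-4. These gene sets differ, so the medians do not show how many genes had a higher fold. How many of all genes marked in both libraries had a higher fold after IL-4 was not counted. The counts of higher and lower folds in the lists below therefore have no such share beside them. Upstream regulators, the kinases of the ERK cascade, CREB and the serum response and ETS factors, were marked at 13 and 15 of 15, with a median fold at marked genes of 3.15 untreated and 3.81 with IL-4. The fold was higher after IL-4 at all 13 genes marked in both. Srf, serum response factor itself, was listed at 4.50 and 5.69. Elk3 (an ETS partner of SRF, 2.49) and Mrtfb (a coactivator of SRF, 2.55) carried a region only after IL-4.

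NuRD subunits were marked at 10 and 11 of 12, with median folds of 4.83 and 5.19, and of the 10 marked in both, 9 had a higher and 1 a lower fold after IL-4. The lower one was Hdac2, a deacetylase (5.25 and 5.19, with unscaled pileups of 82 and 93 fragments). Chd4, the subunit that NAB2 binds, was listed at 2.48 and 2.80, Hdac1, a deacetylase of the complex, at 5.10 and 9.01, and Chd3, a remodeller related to CHD4, had a region only after IL-4 (3.77). Mta1 was marked in neither. Other immediate early genes were marked at 15 and 16 of 17, with median folds of 3.21 and 4.04. Of the 15 marked in both, the fold was higher after IL-4 at 10 and lower at 5. Fos was listed at 3.08 and 4.00, Jun at 4.88 and 5.54, and Klf6 at 7.98 and 8.70. The 5 with lower folds were Junb (4.32 and 4.08), Klf2 (5.40 and 4.75), Btg2 (4.89 and 4.60), Nr4a3 (2.96 and 2.12) and Zfp36 (2.2 and 1.93). Their unscaled pileups were not lower with IL-4. They were 131 and 204 fragments at Junb, 97 and 123 at Klf2, 79 and 119 at Btg2, 51 and 54 at Nr4a3, and 71 and 97 at Zfp36. Fosl1, an AP-1 subunit, had a region only after IL-4 (1.90), and the nuclear receptor Nr4a2 had none.

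Genes that EGR factors are known to bind in other tissues were marked at 11 and 14 of 17. Of the 11 marked in both, the fold was higher after IL-4 at 9 and lower at 2. Tnf was listed at 4.88 and 5.53, Tgfb1 at 2.61 and 2.63, Icam1 at 3.83 and 3.61, and Pmp22 at 2.09 and 2.03. The unscaled pileups were 58 and 90 fragments at Icam1 and 33 and 44 at Pmp22. Pdgfa (a growth factor, 2.30), F3 (tissue factor, 2.37) and Mag (a myelin protein, 1.76) had a region only after IL-4, and Fasl, Prx and Gjb1 had none. The related zinc finger factors Wt1, Sp1, Sp2, Sp3 and Sp4 were marked at all 5 in both libraries, with median folds of 6.12 and 6.01. The fold was lower after IL-4 at 4 of the 5, while the unscaled pileup was lower only at Wt1 (120 and 118 fragments). It was 145 and 200 at Sp1, 103 and 154 at Sp2, and 124 and 145 at Sp4.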

How the data were processed

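The data were 2 CUT&Tag libraries with an antibody against PHLPP1, per the labels' protocols, each with 1 peak list. Per the submitters' processing notes, the mm10 build and the tools MACS2 2.2.7.1, Bowtie 0.12.8 and DiffBind were used, in roles the notes do not state. Settings, filters and the depth in reads are unknown here. The deposited lists hold a fold (the authors' ratio of summit pileup to the background of that library, each with 1 added), a −log10 p and a −log10 q, the integer score in the deposited lists, which is a multiple of −log10 p, and a summit offset.

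From the deposited fold and p-value, pileup and background were recovered, with pileups whole within 0.05 for 100% of regions; the recovery was checked on simulated data. Gene positions came from RefSeq on GRCm38.p6. Starts came from its promoter table for 17491 protein-coding genes, and both gene ends stood in for the other 4392. Regions of the 2 lists were paired when each was the other's largest overlap. Ratio intervals came from exact binomial intervals of the paired pileups, and shares have Clopper-Pearson intervals. The library background, 13.9 and 15.9 fragments, is the only measure of depth, and PCR copies were not separable, so intervals cover counting error only.

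The members, lists and limits were chosen with earlier results of these data known, and the planned design held no test. Of the named regions, each window gives the highest fold per library, each region within 1 kb of the start and up to 3 of highest fold found in 1 library alone; from each list up to 4 genes marked in 1 library alone are named. The neighbouring regions and other list genes named were chosen after their values were seen. Alternatives covered flanks, −log10 q and fold limits, list lengths, overlap rules, start windows and scalings. Python 3.11.15, numpy 2.4.6, pandas 2.3.3, scipy 1.17.1 and matplotlib 3.10.9 were used.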

Additional observations from a re-analysis of the deposited data

How the results depend on the processing

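No paired analysis was possible because each group held 1 library. The number of regions in the 6 windows, 52 untreated and 85 with IL-4, fell to 27 and 31 with flanks of 10 kb, to 10 and 14 in gene bodies alone, to 13 and 34 where −log10 q reached 5, and to 8 and 21 where the fold reached 3, as fewer regions qualify by construction. With an IL-4 list cut to the length of the untreated list it was 67. With every region nearer to Stat6 counted too, an alternative chosen after seeing the data, Nab2 had 10 and 19 regions in place of 5 and 11; counting ties or assigning by the summit left 5 and 11. Members marked were 2 and 3 at a fold of at least 3 (26.2% and 40.2% of all genes). When a region had to cover the start itself they were 4 untreated and 2 with IL-4 (39.1% and 49.5% of all genes), since the IL-4 regions at Nab1 and Nab2 lay beside the start. With either gene end for every gene, also chosen after seeing the data, 3 and 6 members were marked (57.5% and 70.4% of all genes), and Egr2 was then unmarked in the untreated library. The shared share of untreated regions was 76.9% and of IL-4 regions 47.1% when summits had to lie within 250 bp, against 56.7% and 41.5% of whole lists. Pairs with a pileup ratio of at least 1.5 were 14 of 44 as reported, 21 unscaled and 6 with the median divisor, against 13.8%, 26.3% and 7.45% of all pairs. At a fold of at least 3, 34 untreated and 46 IL-4 genes of the 5 lists were marked, in place of 54 and 61, against the same 26.2% and 40.2% of all genes.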

Other observations

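Some region borders and summits were the same to the base in both libraries. Of the 44 shared pairs in the windows of the EGR and NAB genes, 6 shared at least 1 border, 13.6%, against 4.30% of the 101995 pairs of the genome and 9.16% of those with an untreated fold of at least 5. The Egr1 region, 1474 bp wide, shared both, as did 86 pairs in the genome (0.0843%). Of the 44 summits, 2 were at the same base, both at or near Egr2 (67537784 and 67549184), against 2.18% of all pairs. Why borders coincide was not tested.

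The background recovered at shared regions was higher with IL-4 by a median factor of 1.29 in the windows, against 1.14 over all pairs, and by 1.45 at Nab2, 1.44 at Egr3 and 1.35 at Egr1. At the Egr1 region the fold was lower with IL-4 while the pileup was higher, before and after scaling. At the start of Nab2 the fold was lower too, and the scaled ratios were below 1 (0.899 and 0.953). The unscaled pileups there were 40 and 41, at summits 426 bases apart, and 58 and 63.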
